A study of Mus musculus with 18 samples.

Results

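The 50 genes described here encode the enzymes and carriers of glycolysis, of pyruvate entry into mitochondria and of the TCA (tricarboxylic acid) cycle, and they were followed in 18 RNA-seq libraries of early mouse embryos. The members are a list of gene symbols of these pathways, which uses no measured value as a criterion but was drawn up with earlier results of these data known. All 50 were found among the 55099 genes kept from the files. They fall into 19 genes of glucose uptake and glycolysis, 14 genes of pyruvate entry, and 17 genes of the TCA cycle and the enzymes linked to it. Below, TCA genes and counts for the TCA cycle mean all 17. They include linked enzymes outside the cycle itself, such as Aco1, Idh1, Mdh1, Acly and Me2.

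The study concerns crotonylation of histones, in which lysines carry a crotonyl group, in early embryos. Libraries came from Smart-seq2, a method that copies poly(A) RNA into full-length cDNA, and each tube held 5 to 10 embryos. Embryos with an Echs1 siRNA (siEchs1) or a control (siCon) form 4 siRNA groups of 3 libraries, at the labelled stages E2C and L2C. For the treatments, wild-type embryos were exposed from the zygote to DMSO (the control), sodium acetate or sodium crotonate and collected at E2C, the early 2-cell stage, in 3 groups of 2 libraries. The labels do not spell out L2C, and they give no strain, dose or timing, and no genotype for the siRNA embryos. All 4 siRNA groups, siCon included, carry an siRNA, and the DMSO, acetate and crotonate groups carry none. Echs1 encodes a mitochondrial hydratase of short-chain enoyl-CoA thioesters, crotonyl-CoA among them.

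Glycolysis turns glucose into pyruvate in the cytosol, and lactate dehydrogenase interconverts pyruvate and lactate. Pyruvate enters mitochondria through the MPC carrier, and the pyruvate dehydrogenase complex turns it into acetyl-CoA, which the TCA cycle oxidises. Mouse embryos of the first cleavages are known to live mainly on pyruvate and lactate and to take up more glucose only later.

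Values were deposited as FPKM, fragments of a gene scaled to its length and to the library's mapped fragments, and a library's values summed to 708113 to 1123993 FPKM. Echs1 was at 30.5, 27.5 and 32.5 FPKM in siCon E2C and at 0.71, 5.88 and 3.82 FPKM in siEchs1 E2C, and at 38.6, 39.2 and 24.4 FPKM in siCon L2C and 0.89, 4.32 and 4.25 FPKM in siEchs1 L2C, without overlap at either stage. Replicate 3 of siEchs1 E2C stood apart from the other 2: the oocyte gene Mos was at 676, 808 and 7.7 FPKM in this group and at 4.8, 5.89 and 5.96 FPKM in siCon E2C. The summed level of 12 oocyte and maternal transcripts was 6055 to 7901 FPKM in siCon E2C and 4985 to 18694 in siEchs1 E2C, then 1081 to 2130 in siCon L2C and 16081 to 21031 in siEchs1 L2C. By limma, 9 of the 12 were higher and 0 lower in siEchs1 at E2C, 11 and 0 at L2C, and 0 higher and 3 lower from E2C to L2C in siCon. Over all tested genes 11.0% were higher and 9.31% lower at E2C, 21.9% and 26.9% at L2C, and 35.8% and 14.4% with stage in siCon. The sum of 7 markers of the 2-cell embryo was 1018 to 1246 and 237 to 409 FPKM at E2C, and 1090 to 1593 and 69.1 to 175 at L2C, in the same order. Markers of cumulus and granulosa cells summed to 2.52 to 10.8 FPKM over all groups. Mitochondrially encoded RNA took 13.1% to 17.1% of the total in siCon E2C and 1.69% to 10.3% in siEchs1 E2C, and 7.58% to 11.2% in siCon L2C and 0.831% to 2.27% in siEchs1 L2C. Blood markers summed to 59.7 to 77.8 FPKM in siCon E2C, 2.74 to 10.5 in siEchs1 E2C, 90.5 to 125 in siCon L2C and 3.43 to 18.7 in siEchs1 L2C. Oviduct markers summed to 21.6 to 26.4, 2.54 to 12.1, 97.2 to 180 and 2.74 to 21.1 FPKM in the same order, of which most was Epcam. These marker and mitochondrial values move with the siRNA groups in the comparisons below, and their part in the results was not tested. The files hold no read counts, so the depth behind each value is unknown. The labels do not say that replicates came from separate collections, so p-values measure only the spread between libraries, which may be technical. Smart-seq2 keeps no strand, and 13 of the 50 genes share exon bases with another annotated gene, Gapdh, Tpi1, Pkm, Aldoa, Slc2a1, Mpc1 and Pdha1 among them, so that their reads cannot be fully told apart. In tubes of whole embryos, fewer cells with a gene's RNA and less of that RNA per cell cannot be told apart. FPKM is relative to each library's mapped fragments, so a rise or fall below is a change of share, not of amount.

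Ldhb, the heart-type subunit of lactate dehydrogenase, had the highest mean level of the 50 genes in each of the 7 groups. Its level was 2131, 1706 and 1516 FPKM in siCon E2C, and 1344 and 1599.5 FPKM in DMSO E2C. Ldha, the muscle-type subunit, was at 1.64, 3 and 5.41 FPKM in siCon E2C, so that Ldhb made up 99.8% ± 0.141 (SD, n = 3) of the 2 subunits' summed FPKM there. Mpc1, a subunit of the mitochondrial pyruvate carrier, had the highest mean of the pyruvate entry genes in every group except siEchs1 L2C, where Pdhx was above it, and stood at 361, 429 and 410.0 FPKM in siCon E2C. Over the 7 group means, Cs, citrate synthase, had the highest level of the TCA genes, with 76.5, 81 and 88.7 FPKM in siCon E2C and 240.0 and 212 FPKM in DMSO E2C. At the other end, Pdk4, a kinase that switches off pyruvate dehydrogenase, was at 0.47 FPKM or less in every library and did not pass the filter of at least 1 FPKM in at least 3 siRNA or 2 treatment libraries.

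Promoters are shown for 4 genes that stand for the opposite patterns described below: Ldha and Pgam1, which rose with stage in siCon and were lower under siEchs1 at L2C, and Ldhb and Fh1, which were higher under siEchs1. Each run is the 250 bases upstream of the RefSeq start in GRCm38.p6, written 5′ to 3′ on the gene's strand, and capitals mark ACGTG, the core of hypoxia response elements and part of many E-boxes, and GGGCGG, the GC box, on either strand and with overlaps allowed.
Ldha (chr7:46845554-46845803, plus strand): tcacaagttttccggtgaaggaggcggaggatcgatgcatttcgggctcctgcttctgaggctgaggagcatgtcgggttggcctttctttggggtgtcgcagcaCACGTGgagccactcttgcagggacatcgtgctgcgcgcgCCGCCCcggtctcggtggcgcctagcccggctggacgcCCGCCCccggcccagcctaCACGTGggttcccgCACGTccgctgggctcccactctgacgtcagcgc
Pgam1 (chr19:41911621-41911870, plus strand): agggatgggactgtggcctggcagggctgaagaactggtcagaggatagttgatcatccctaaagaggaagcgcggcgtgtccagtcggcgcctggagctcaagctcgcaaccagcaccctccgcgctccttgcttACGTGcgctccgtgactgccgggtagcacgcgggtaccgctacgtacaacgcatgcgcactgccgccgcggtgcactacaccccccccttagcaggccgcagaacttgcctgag
Ldhb (chr6:142507958-142508207, minus strand): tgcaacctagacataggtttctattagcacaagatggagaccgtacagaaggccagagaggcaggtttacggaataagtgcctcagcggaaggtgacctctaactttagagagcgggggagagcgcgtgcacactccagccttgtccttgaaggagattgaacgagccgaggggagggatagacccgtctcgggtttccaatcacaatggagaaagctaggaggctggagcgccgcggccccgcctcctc
Fh1 (chr1:175625636-175625885, minus strand): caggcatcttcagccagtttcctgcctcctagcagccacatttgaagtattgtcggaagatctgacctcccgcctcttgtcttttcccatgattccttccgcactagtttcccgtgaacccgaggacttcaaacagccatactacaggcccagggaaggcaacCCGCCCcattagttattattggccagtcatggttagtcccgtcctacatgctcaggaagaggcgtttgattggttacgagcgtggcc
In GENCODE vM21 (GRCm38) these are protein-coding genes: Ldha spans chr7:46841475-46855627, so that its RefSeq window lies inside the longer GENCODE gene, Pgam1 chr19:41911923-41918660, Ldhb chr6:142490249-142507957 and Fh1 chr1:175600374-175625635. In the printed windows ACGTG was matched 5 times for Ldha, 1 time for Pgam1 and 0 times for Ldhb and Fh1, and GGGCGG 2 times for Ldha, 1 time for Fh1 and 0 times for Pgam1 and Ldhb. RefSeq promoters were matched by symbol for 46 of the 50 genes, and ACGTG was in 16 of them (34.8%) against 16.6% of the 32851 promoters in the table. GGGCGG was in 30 of the 46 (65.2%) against 32.7%. By step, ACGTG was in 7 of 18 glycolysis, 5 of 13 pyruvate entry and 4 of 15 TCA promoters. The 46 are 1 promoter per symbol. The 32851 are all promoters listed, not limited to 1 per symbol or to tested genes. The 2 shares thus come from unlike sets, and enrichment was not tested. All of these are matches of letters only.

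**Figure D1:**
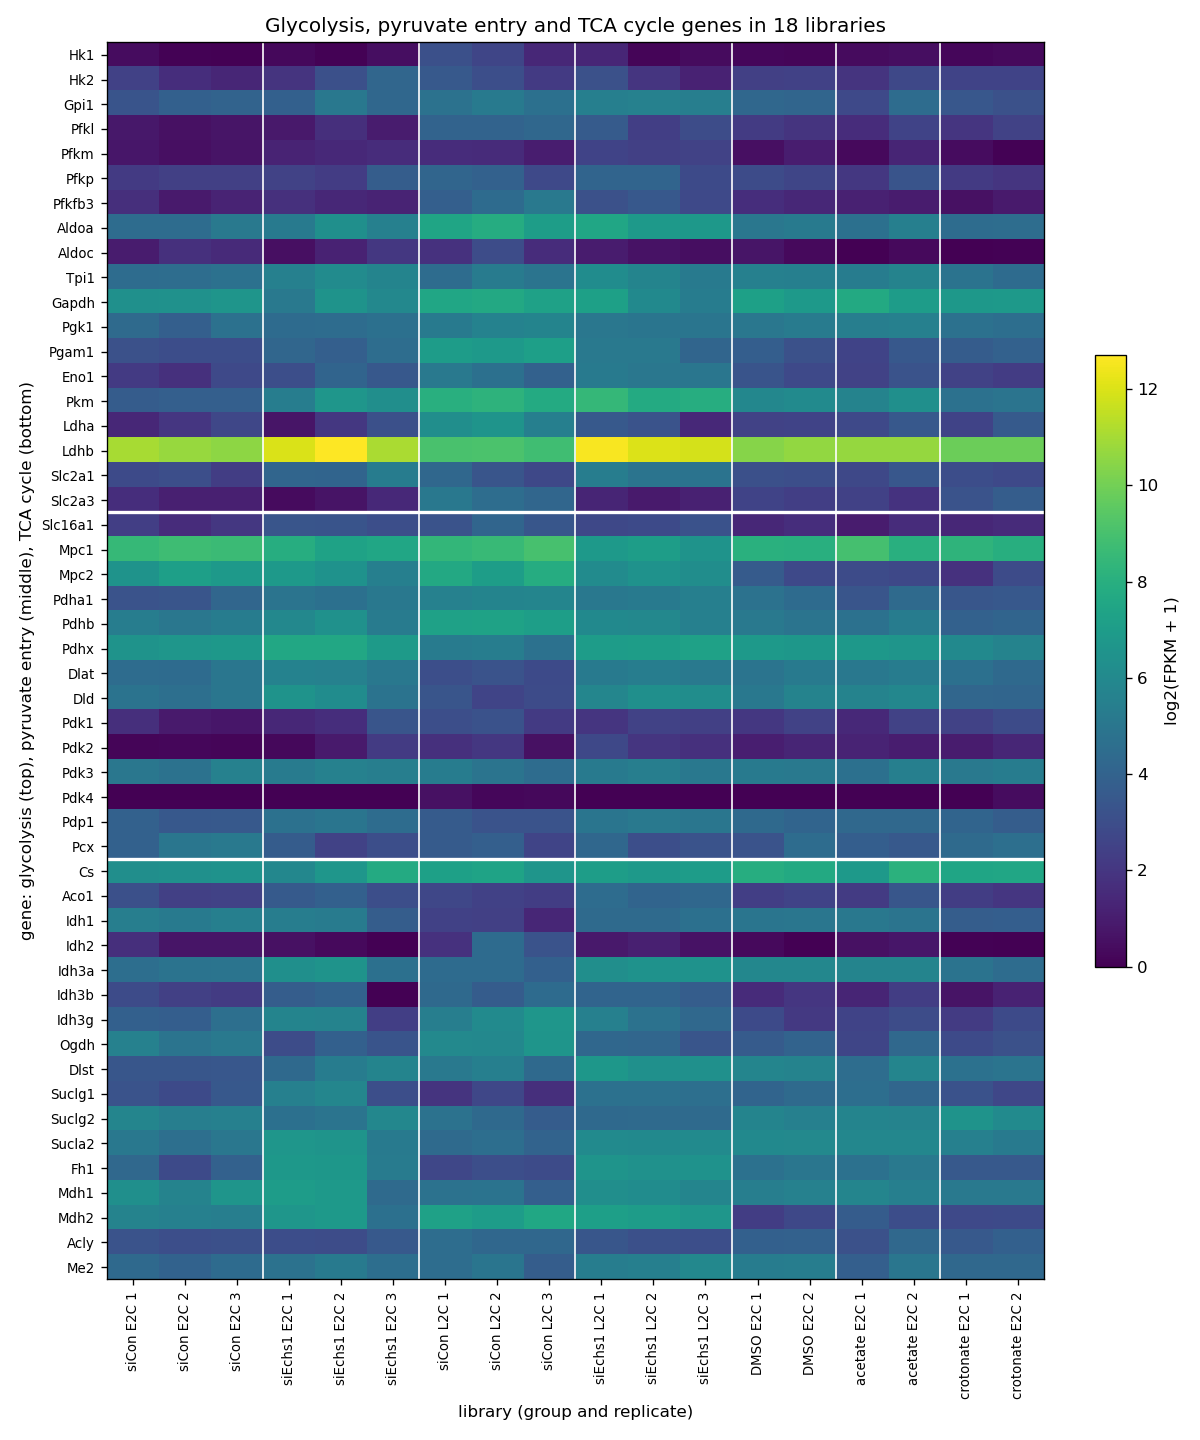
Level of each of the 50 genes (rows, grouped as glycolysis, pyruvate entry and TCA cycle) in each of the 18 libraries (columns), as log2(FPKM + 1) on a colour scale from dark (0) to bright. Ldhb is the brightest row except in siCon L2C replicate 3, where Mpc1 is above it, and Pfkfb3, Pgam1, Pkm and Ldha are brighter in siCon L2C than in siCon E2C.

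From E2C to L2C in siCon embryos, most glycolysis genes rose, while pyruvate entry and TCA genes went both ways. Of the 49 members that could be tested, 24 were higher and 8 lower at L2C (limma, adjusted p under 0.05), where 50.3% of all tested genes were called, 35.8% higher and 14.4% lower. The median log2 difference was 1.02 over the members and 0.51 over all genes tested. Of the 19 glycolysis genes 13 rose and 1 fell, with a median of 1.29. Among 13 tested pyruvate entry genes 5 rose and 4 fell, with a median of 0.01, and among 17 TCA genes 6 rose and 3 fell, with a median of 0.17. Quantile normalization moved the median of all genes to -0.01 and gave 14 higher and 13 lower members (9 and 0 in glycolysis, 3 and 5 in pyruvate entry, 2 and 8 in the TCA cycle), and rescaling without mitochondrial and ribosomal RNA gave 27 and 6.

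In glucose uptake, the high-affinity transporter Slc2a3 (GLUT3) rose from 2.16, 1.16 and 1.18 to 32.7, 22.7 and 17.2 FPKM (log2 difference 3.31 ± 0.37 (SE), adjusted p = 2.44e-05). Its libraries did not overlap between the stages. Slc2a1 (GLUT1) was at 6.2, 7.31 and 3.99 and then 18.2, 9.05 and 5.66 FPKM, and its stages overlapped (log2 difference 0.70 ± 0.45 (SE), adjusted p = 0.211). Slc2a3 thus went from 20.8% ± 6.32 to 70.3% ± 5.56 (SD, n = 3) of the summed FPKM of both transporters.

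Among the early enzymes, Pfkl, the liver-type phosphofructokinase, rose from 0.76, 0.47 and 0.63 to 15.6, 15.2 and 17.8 FPKM (log2 difference 3.41 ± 0.37 (SE), adjusted p = 2.02e-05). Pfkp, the platelet type, was the main phosphofructokinase at E2C with 3.54, 4.27 and 4.28 FPKM and stood at 16.5, 14.2 and 5.94 FPKM at L2C, where Pfkl was above it in 2 of 3 libraries. Pfkfb3, which makes the phosphofructokinase activator fructose 2,6-bisphosphate, rose from 2.27, 0.86 and 1.38 to 13.5, 21 and 34.2 FPKM (log2 difference 3.20 ± 0.39 (SE), adjusted p = 3.95e-05). Hk1, a hexokinase, rose from 0.35, 0.04 and 0.02 to 7.64, 5.23 and 1.66 FPKM (adjusted p = 0.000928), and Hk2, the other one, was at 4.49, 2.16 and 1.6 and then 10.7, 7.24 and 3.48 FPKM (adjusted p = 0.169). Hk2 remained above Hk1 in all 6 libraries.

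The late enzymes Pkm, Ldha and Pgam1 gave the largest log2 differences. The scale, log2(FPKM + 1), understates changes of low genes. Group means went from 0.137 to 4.84 FPKM in Hk1 and from 0.62 to 16.2 FPKM in Pfkl. Pkm, the last enzyme of glycolysis, rose from 11.9, 13.2 and 13.5 to 255, 299 and 218 FPKM, 20 times by the group means (log2 difference 4.21 ± 0.35 (SE), adjusted p = 5.11e-06). Pgam1, phosphoglycerate mutase, rose from 7.96, 6.94 and 6.93 to 129.7, 115 and 142 FPKM, 17.7 times (log2 difference 3.97 ± 0.33 (SE), adjusted p = 5.07e-06). Ldha rose from 1.64, 3 and 5.41 to 75.6, 93.3 and 43.7 FPKM (log2 difference 4.07 ± 0.65 (SE), adjusted p = 0.000282). In each of these 3 genes the lowest L2C library lay above the highest E2C library. Ldhb was the 1 glycolysis member that fell, to 526, 547 and 440.4 FPKM (log2 difference -1.81 ± 0.38 (SE), adjusted p = 0.00166; adjusted p = 0.149 after quantile normalization). Ldhb still made up 88% ± 2.81 (SD, n = 3) of lactate dehydrogenase FPKM at L2C.

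**Figure D2:**
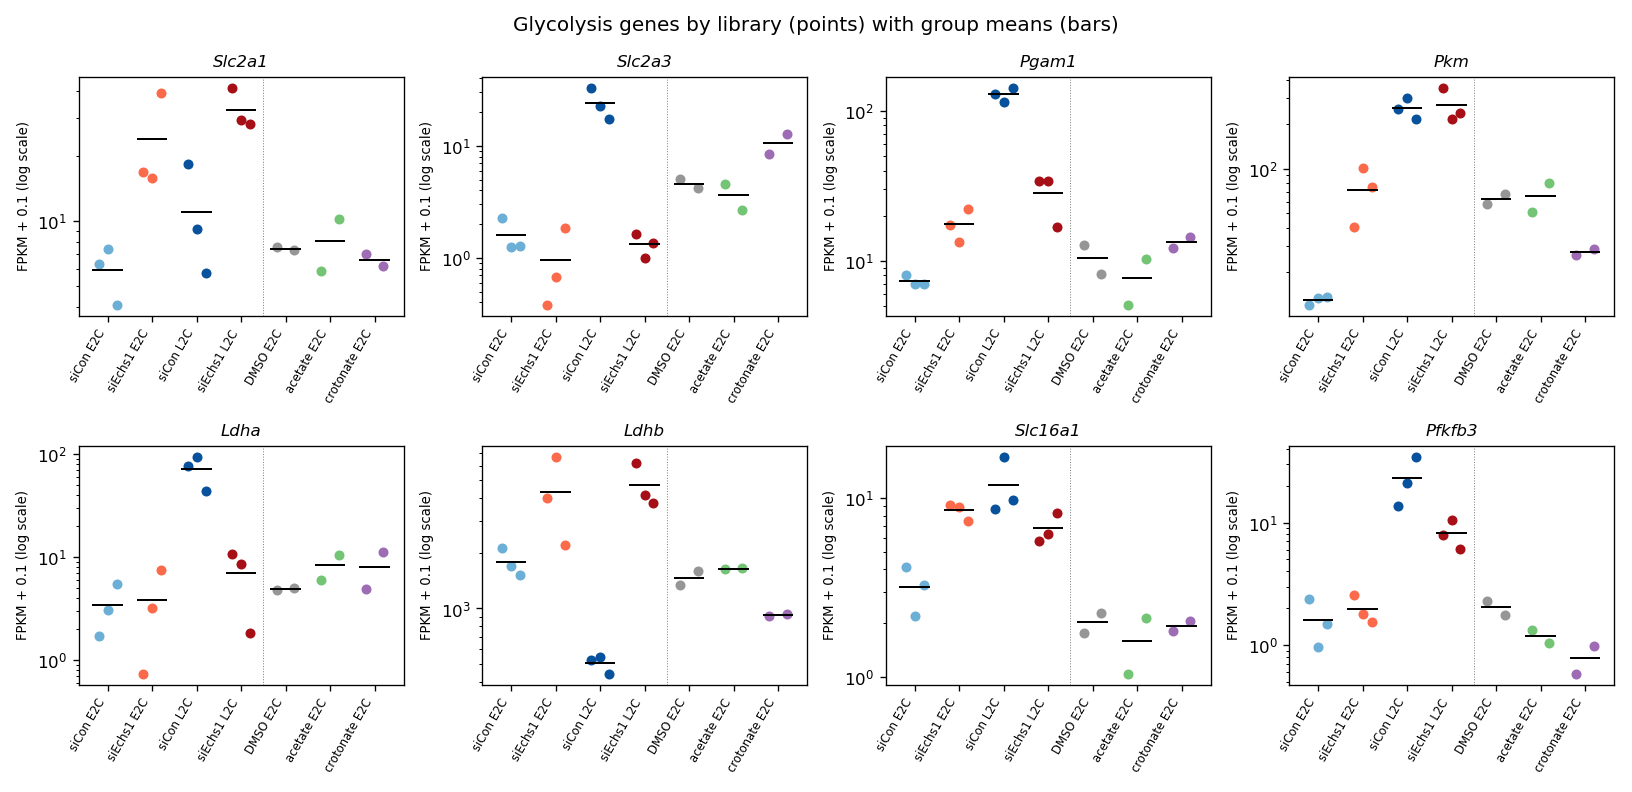
FPKM plus 0.1 on a log axis for 8 genes of glucose and pyruvate use; each point is 1 library, bars are group means, and a dotted line parts the siRNA from the treatment experiment, which were fitted apart. Slc2a3, Pgam1 and Ldha reach their highest points in siCon L2C, and Ldhb its highest points under siEchs1.

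At pyruvate entry, the E1 chains of pyruvate dehydrogenase rose with stage and its core and E3 subunits fell. Pdha1 and Pdhb, the alpha and beta chains of the E1 enzyme, rose from 8.59, 9.13 and 17.6 to 46.7, 53 and 54.5 FPKM and from 40.9, 31.7 and 38.8 to 152, 159 and 137 FPKM (log2 differences 2.10 and 1.98, adjusted p = 0.000178 and 0.000301). Dlat, the E2 core, fell from 21.3, 20.8 and 30.6 to 7.43, 8.62 and 6.35 FPKM, and Pdhx, which binds E3 to the core, from 91.3, 102 and 108 to 37.5, 41.1 and 25.8 FPKM (log2 differences -1.56 and -1.53, adjusted p = 0.000768 and 0.00115). Dld, the E3 enzyme that this complex shares with other dehydrogenases, fell from 27.8, 23.9 and 30.6 to 9.17, 5.09 and 6.44 FPKM (log2 difference -1.87 ± 0.41 (SE), adjusted p = 0.0025). The stages did not overlap in any of these 5 genes. Pdk1, an inhibiting kinase, rose from 2.31, 0.87 and 0.69 to 7.26, 8.15 and 3.46 FPKM (adjusted p = 0.016), while Pdk3 held the highest level of the 4 kinases in all 6 libraries, at 32.3, 26.3 and 46.5 and then 39.4, 28.5 and 21.7 FPKM (adjusted p = 0.581). Slc16a1 (MCT1), which carries pyruvate and lactate across the cell membrane, rose from 4.04, 2.1 and 3.16 to 8.55, 16.9 and 9.62 FPKM (adjusted p = 0.00172). Mpc1 was at 338, 377 and 507 FPKM at L2C, with a log2 difference of 0.01 and a 95% interval from -0.61 to 0.63.

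Among the TCA genes, the cytosolic and peroxisomal NADP enzyme Idh1 fell from 41.6, 34.8 and 43.8 to 4.47, 4.3 and 1.58 FPKM (log2 difference -3.28 ± 0.44 (SE), adjusted p = 8.63e-05). Its mitochondrial counterpart Idh2 rose from 2.31, 0.64 and 0.63 to 2.5, 20.9 and 8.38 FPKM (log2 difference 2.11 ± 0.54 (SE), adjusted p = 0.00623), with a wide spread at L2C. Malate dehydrogenase changed its main form: Mdh2, the mitochondrial one, rose from 50.6, 45.8 and 42.2 to 151, 129.9 and 188 FPKM and Mdh1, the cytosolic one, fell from 79.4, 50.1 and 96.8 to 26.8, 27.5 and 13.2 FPKM (adjusted p = 0.00892 and 0.0296). The share of Mdh2 in their summed FPKM went from 39% ± 8.71 to 87% ± 5.72 (SD, n = 3). Idh3g, a regulatory subunit of the NAD enzyme, rose from 17 ± 6.31 to 69 ± 29.4 FPKM (SD, n = 3; limma adjusted p = 0.0476), and its catalytic subunit Idh3a was at 22.7, 28.1 and 28.6 and then 20.5, 20.8 and 13.9 FPKM (adjusted p = 0.334). Dlst, the E2 subunit of 2-oxoglutarate dehydrogenase, and Acly, which cleaves exported citrate to acetyl-CoA, rose as well (log2 differences 1.55 and 1.21, adjusted p = 0.00572 and 0.00406), but after quantile normalization their adjusted p was 0.0751 and 0.178. Quantile normalization also ended the calls of Gpi1, Pfkm, Pfkp, Pgk1, Pdk1, Pdk2, Idh3g and Ogdh, with adjusted p from 0.0906 to 0.476.

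Of the 32 stage calls in siCon, 18 held under every alternative setting and every left-out library. The calls of Gpi1, Pfkm, Pfkp, Pdk1, Pdk2, Pcx, Idh3g, Ogdh, Suclg2 and Mdh1 were lost without 1 library, with adjusted p between 0.0518 and 0.178; each of the 6 siCon libraries did this to at least 5 of these genes, siEchs1 L2C replicates 1, 2 and 3 to 3, 5 and 3 of them, and siEchs1 E2C replicate 2 to 1. Over the 51 tested genes of these pathways outside the list, 23 rose (45.1%) and 6 fell (11.8%), where 35.8% and 14.4% of all genes did. Among those that rose were the pentose phosphate enzyme Pgd, from 3.86, 5.55 and 2.74 to 70.3, 67.3 and 129 FPKM (adjusted p = 5.63e-06), and the lactate exporter Slc16a3 (MCT4), from 0.03, 0.06 and 0.19 to 12.6, 12.8 and 3.21 FPKM (adjusted p = 0.000362).

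At E2C, siEchs1 embryos had higher levels of several glycolysis genes and of fumarase. Lower were the pyruvate carrier subunit Mpc1, pyruvate carboxylase and 2-oxoglutarate dehydrogenase E1. Of 49 tested members 12 were higher and 3 lower, where 20.3% of all genes were called, 11.0% higher and 9.31% lower. The median log2 difference was 0.62 over the members and 0.15 over all genes. By step, 6 glycolysis genes were higher and 0 lower of 19 (median 0.66), 3 were higher and 2 lower of 13 at pyruvate entry (median 0.81), and 3 were higher and 1 lower of 17 in the TCA cycle (median 0.46). Rescaling without mitochondrial and ribosomal RNA gave 19 higher and 1 lower.

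Pkm was at 40.4, 101 and 75.6 FPKM in siEchs1 E2C against 11.9, 13.2 and 13.5 in siCon E2C (log2 difference 2.31 ± 0.35 (SE), adjusted p = 0.00128). Every siEchs1 library lay above every siCon library. Slc2a1 was at 16.8, 15.8 and 39 against 6.2, 7.31 and 3.99 FPKM (log2 difference 1.77 ± 0.45 (SE), adjusted p = 0.016). The other glycolysis genes that were higher are Eno1, enolase, at 7.31, 16.3 and 10.1 against 3.46, 2.39 and 5.96 FPKM (adjusted p = 0.0363), Tpi1, triose phosphate isomerase, at 45.7, 69.8 and 51.7 against 21.2, 22.6 and 26.1 FPKM (adjusted p = 0.0237), Pgam1 at 17.3, 13.3 and 22.1 FPKM (adjusted p = 0.0291) and Ldhb at 4000.2, 6675 and 2213 FPKM (adjusted p = 0.0496). Ldha and Slc2a3, the stage-rising forms, were at 0.64, 3.11 and 7.49 and 0.28, 0.57 and 1.74 FPKM, overlapping siCon (adjusted p = 0.95 and 0.389).

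At pyruvate entry, Mpc1 was at 237, 159.9 and 185 FPKM, below all 3 siCon libraries (log2 difference -1.06 ± 0.29 (SE), adjusted p = 0.0216). Mpc1-ps, a pseudogene copy listed on its own, was at 29.9 to 150.3 FPKM over the libraries, so reads may be split between both. Mpc2, the other carrier subunit, overlapped siCon at 112, 87.9 and 43.9 against 90.5, 146 and 114 FPKM and was not called. Pcx, pyruvate carboxylase, was at 11.8, 4.72 and 7.35 against 14.6, 30.3 and 34.2 FPKM (log2 difference -1.60 ± 0.48 (SE), adjusted p = 0.0338). Slc16a1, Pdha1 and Pdp1, the phosphatase that switches pyruvate dehydrogenase on, were higher, at 9.07, 8.87 and 7.4, at 28.5, 24.7 and 32.9 and at 25.7, 29.5 and 21.3 FPKM (log2 differences 1.23, 1.28 and 1.04, adjusted p = 0.0225, 0.0147 and 0.0211).

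In the TCA cycle, Fh1, fumarase, was at 108, 106 and 37.9 against 18.7, 6.27 and 14.6 FPKM (log2 difference 2.55 ± 0.45 (SE), adjusted p = 0.00268). Even its lowest siEchs1 library, replicate 3, was above the highest siCon library. Ogdh, the E1 subunit of 2-oxoglutarate dehydrogenase, was lower, at 6.74, 13.9 and 9 against 47.8, 28.7 and 33.8 FPKM (log2 difference -1.81 ± 0.37 (SE), adjusted p = 0.00611), while its partner Dlst was higher, at 18.9, 39.1 and 51.9 against 9.63, 9.4 and 9.93 FPKM (log2 difference 1.71 ± 0.39 (SE), adjusted p = 0.0106). Sucla2, the ATP-forming subunit of succinyl-CoA ligase, was at 102, 95.2 and 37.2 against 32.4, 23.9 and 31.6 FPKM (adjusted p = 0.0316), and Suclg2, the GTP-forming one, at 25, 28.8 and 58.8 against 54.9, 41.6 and 45.1 FPKM (adjusted p = 0.47).

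Replicate 3 of siEchs1 E2C differed from the other 2 in members of all 3 steps, in both directions. Replicates 1 and 2 were both above all siCon libraries for 28 of the 50 genes, and for 9 of these 28 (32.1%) replicate 3 was not. Over all 17653 tested genes the first held for 35.9%, and in 47.1% of those replicate 3 was not above siCon. Of these 9, 0 were glycolysis genes (of 9 there), 2 were pyruvate entry genes (Pdhb and Dld, of 8) and 7 were TCA genes (Aco1, Idh3a, Idh3b, Idh3g, Suclg1, Mdh1 and Mdh2, of 11). Suclg1, the shared subunit of succinyl-CoA ligase, was at 45.3, 56.7 and 7.25 FPKM, against 8.63, 6.2 and 10.4 in siCon E2C, and Idh3b at 12.3, 15.2 and 0 against 6.53, 4.27 and 3.6 FPKM. Replicate 3 was the highest of its group in Hk2, at 2.78, 7.5 and 17.2 FPKM, in Pfkp, at 4.59, 3.74 and 12.6 FPKM, and in Pdk1, at 1.64, 2.13 and 9.36 FPKM. Without replicate 3, 23 members were higher and 3 lower, with 37.2% of all genes called: 7 and 0 in glycolysis, 7 and 2 at pyruvate entry, 9 and 1 in the TCA cycle.

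Calls that held under every setting and left-out library at E2C were those of Pkm, Fh1, Ogdh and Dlst. The other 11 calls were lost without 1 library, with adjusted p between 0.0505 and 0.185. Leaving out siCon E2C replicates 1, 2 and 3 ended 7, 10 and 9 calls, siEchs1 E2C replicates 1 and 2 ended 4 and 8, siEchs1 L2C replicates 2 and 3 ended those of Eno1 and Ldhb, and each of the other 4 L2C libraries ended that of Ldhb alone. Over the 51 other genes of these pathways 8 were higher (15.7%) and 2 lower (3.92%), where 11.0% and 9.31% of all genes were. Among the higher ones was Bpgm, bisphosphoglycerate mutase, at 1052, 1594 and 274 against 223, 197 and 131 FPKM (adjusted p = 0.0179).

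At L2C the siRNA groups differed in 30 of the 49 tested members, and the steps divided. Of the called genes, most in glycolysis were lower in siEchs1 and most of the TCA genes, linked enzymes included, were higher. This comparison shares the siCon L2C libraries with the stage comparison above. Across all genes 48.8% were called, 21.9% higher and 26.9% lower, and among the members 16 were higher and 14 lower. Glycolysis had 3 higher and 8 lower of 19, with a median log2 difference of -0.58. Pyruvate entry had 4 higher and 3 lower of 13 (median 0.14), and the TCA cycle 9 higher and 3 lower of 17 (median 1.18), against a median of -0.08 over all genes. Without siEchs1 E2C replicate 3 in the fit these counts were 4 and 8, 4 and 3, and 9 and 4.

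**Figure D3:**
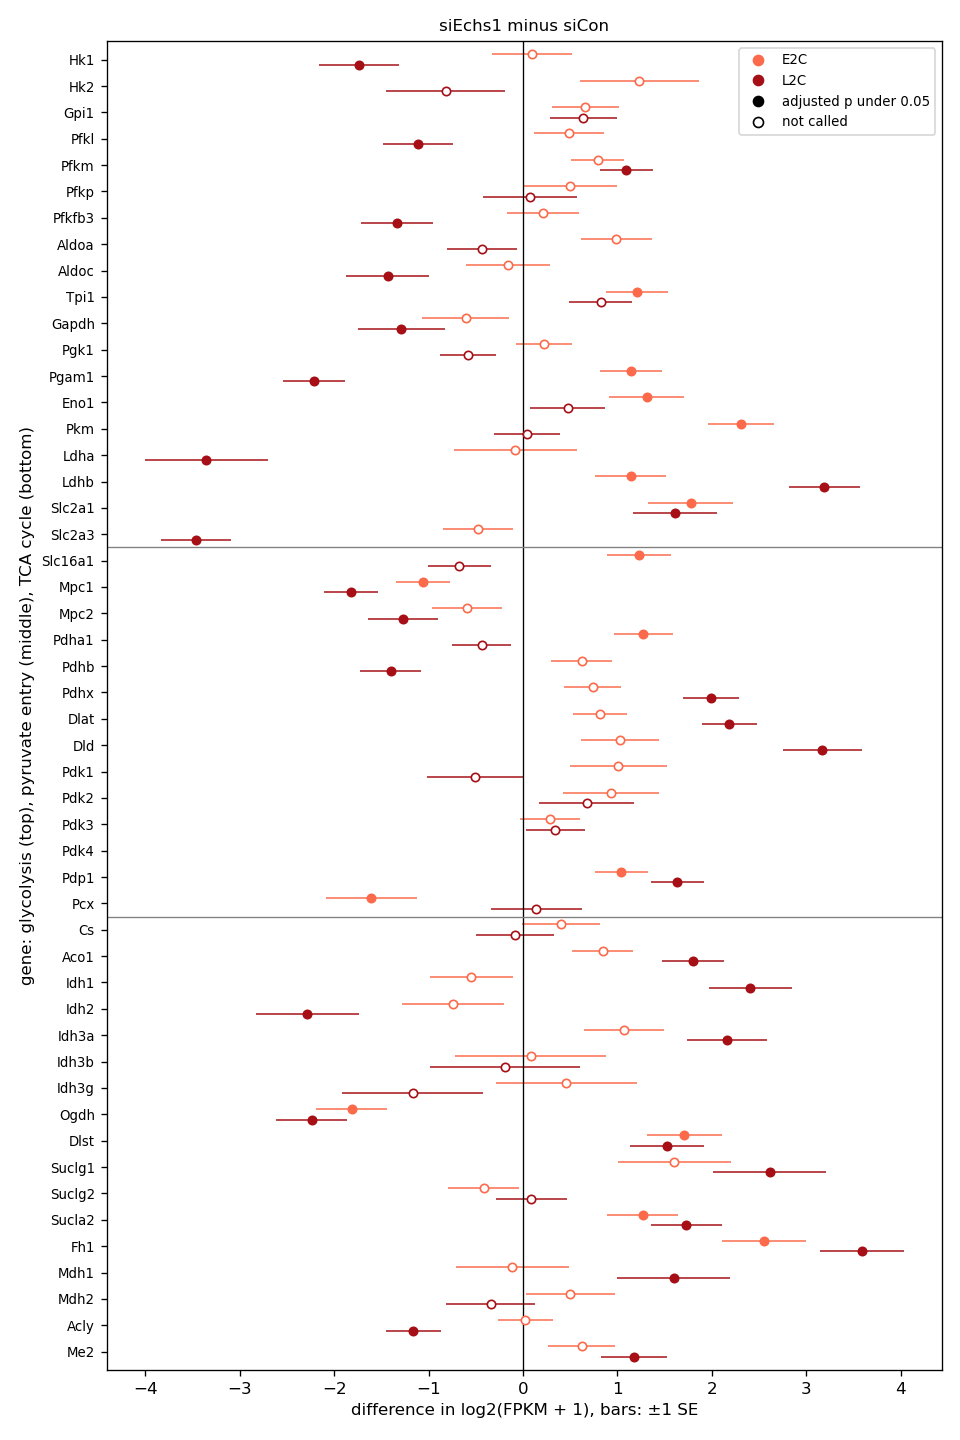
Difference of siEchs1 minus siCon in log2(FPKM + 1) for each tested gene at E2C (light) and L2C (dark), with bars of 1 SE; filled points passed an adjusted p of 0.05 (limma). At L2C, Slc2a3, Ldha, Idh2, Ogdh and Pgam1 lie farthest to the left and Fh1, Ldhb and Dld farthest to the right.

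The 2 forms of lactate dehydrogenase went in opposite directions. Ldhb was at 6201, 4169 and 3736 FPKM in siEchs1 L2C against 526, 547 and 440.4 in siCon L2C, 9.32 times by the means (log2 difference 3.19 ± 0.38 (SE), adjusted p = 9.03e-05). Ldha was at 10.6, 8.41 and 1.75 against 75.6, 93.3 and 43.7 FPKM (log2 difference -3.36 ± 0.65 (SE), adjusted p = 0.00125). All 3 siEchs1 libraries were above siCon for Ldhb and below siCon for Ldha, and the share of Ldhb was 99.9% ± 0.082 (SD, n = 3).

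The 2 glucose transporters also went in opposite directions. Slc2a3 was at 1.53, 0.9 and 1.25 against 32.7, 22.7 and 17.2 FPKM (log2 difference -3.46 ± 0.37 (SE), adjusted p = 5.93e-05) and Slc2a1 at 41.1, 29.1 and 27.9 against 18.2, 9.05 and 5.66 FPKM (log2 difference 1.61 ± 0.45 (SE), adjusted p = 0.0103). Slc2a3 made up 3.63% ± 0.647 (SD, n = 3) of the summed FPKM of both in siEchs1 L2C, against 70.3% ± 5.56 in siCon L2C.

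Pgam1 was at 34, 33.9 and 16.8 against 129.7, 115 and 142 FPKM (log2 difference -2.21 ± 0.33 (SE), adjusted p = 0.000254). Its pseudogene Pgam1-ps2 reached 15.1 FPKM at most. Hk1, Pfkl, Pfkfb3, Aldoc and Gapdh were lower too, by log2 differences from -1.73 for Hk1 to -1.11 for Pfkl, with adjusted p of 0.00495 and 0.0255. Gapdh, which oxidises glyceraldehyde 3-phosphate, was at 150.1, 65.1 and 38.7 against 183, 202 and 154 FPKM (adjusted p = 0.0346). Pfkm, the muscle-type phosphofructokinase, was higher, at 4.86, 4.37 and 4.59 against 2.06, 1.93 and 1.02 FPKM (adjusted p = 0.00644). Pkm reached 350.4, 217 and 238 FPKM, overlapping the siCon values of 255, 299 and 218 FPKM, with a 95% interval of the log2 difference from -0.72 to 0.80. Aldoa and Eno1 overlapped as well, with log2 differences of -0.43 and 0.47 (adjusted p = 0.35 and 0.343).

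Both carrier subunits of pyruvate were lower. Mpc1 was at 116, 133 and 92.5 against 338, 377 and 507 FPKM (log2 difference -1.82 ± 0.29 (SE), adjusted p = 0.000343) and Mpc2 at 68.8, 87.6 and 72.9 against 203, 135 and 231 FPKM (log2 difference -1.27 ± 0.37 (SE), adjusted p = 0.0138). Within pyruvate dehydrogenase, the subunits that had fallen with stage in siCon were higher in siEchs1. Dld was at 55.1, 78.2 and 74.5 against 9.17, 5.09 and 6.44 FPKM, Dlat at 36.8, 40.9 and 34.4 against 7.43, 8.62 and 6.35 FPKM and Pdhx at 129, 133 and 155 against 37.5, 41.1 and 25.8 FPKM (log2 differences 3.17, 2.19 and 1.99, adjusted p = 0.000135, 0.000145 and 0.000273). Pdhb, which had risen, was lower, at 63.4, 60.2 and 45.7 against 152, 159 and 137 FPKM (log2 difference -1.40 ± 0.32 (SE), adjusted p = 0.00346), and Pdha1 was at 32.9, 36.5 and 44.3 against 46.7, 53 and 54.5 FPKM (adjusted p = 0.268). Pdp1 was higher, at 29.9, 34.6 and 30.8 against 11.7, 8.65 and 8.54 FPKM (adjusted p = 0.000568), and 0 of the 3 tested pyruvate dehydrogenase kinases passed the test (unadjusted p from 0.207 to 0.335, adjusted p from 0.289 to 0.427).

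**Figure D4:**
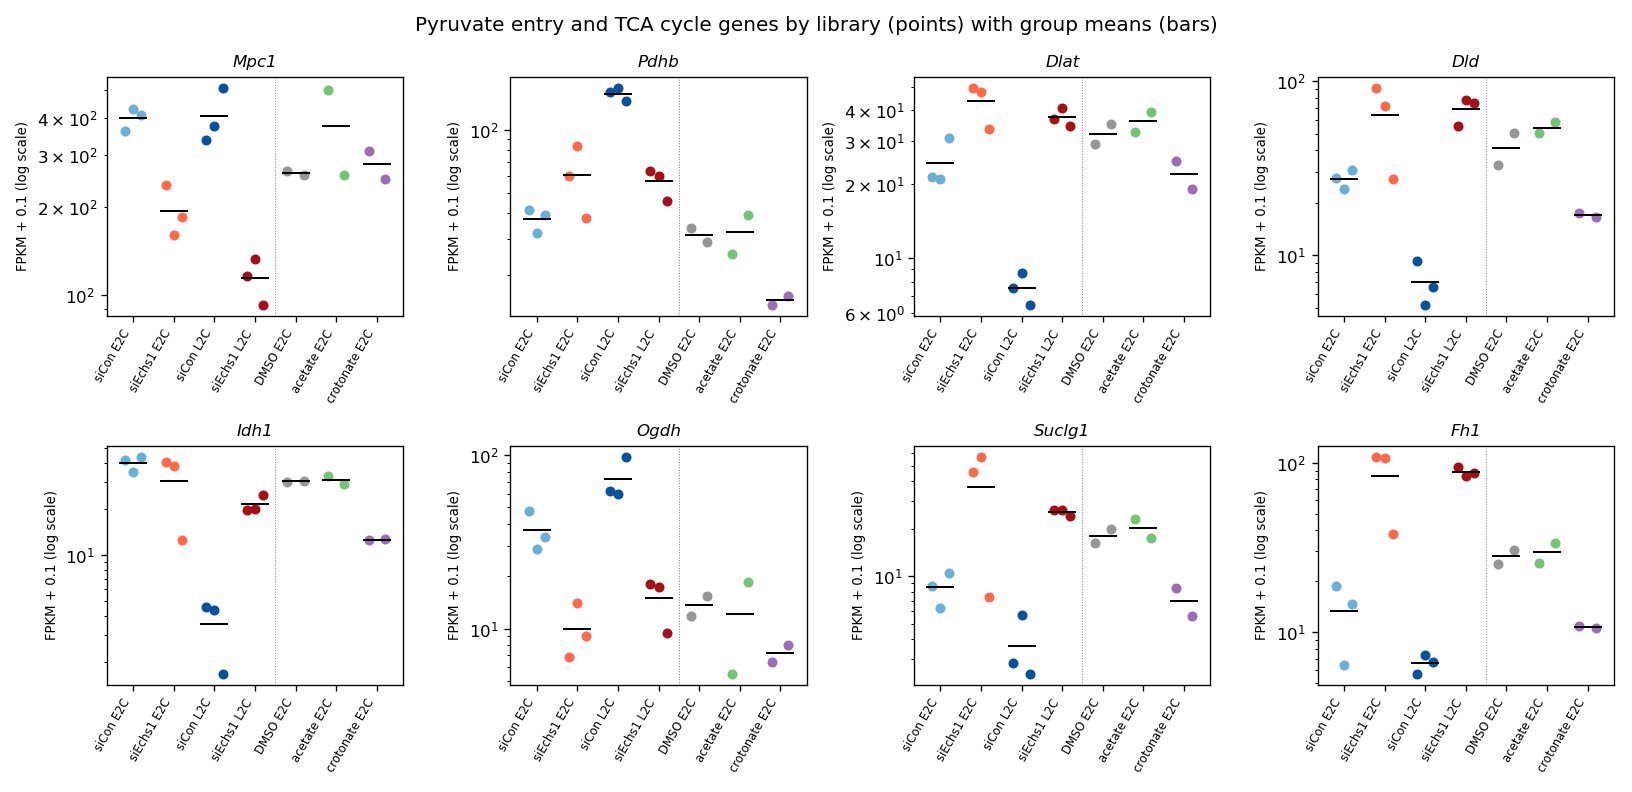
FPKM plus 0.1 on a log axis for 8 genes of pyruvate entry and the TCA cycle; each point is 1 library and bars are group means. Dlat, Dld, Suclg1 and Fh1 have their lowest group mean in siCon L2C and are higher in all 3 siEchs1 L2C libraries, while Mpc1, Pdhb and Ogdh are lower there.

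Of the 17 TCA genes 9 were higher in siEchs1 L2C, Fh1 by the most. It was at 94.7, 83.8 and 86.5 against 5.58, 7.24 and 6.55 FPKM, 13.7 times by the means, the largest positive log2 difference of the 49 tested members (log2 difference 3.59 ± 0.45 (SE), adjusted p = 0.000109). Suclg1 was at 26.1, 26 and 24 against 2.71, 5.56 and 2.31 FPKM (log2 difference 2.61 ± 0.59 (SE), adjusted p = 0.00334) and Idh1 at 19.8, 19.9 and 24.5 against 4.47, 4.3 and 1.58 FPKM (log2 difference 2.41 ± 0.44 (SE), adjusted p = 0.000877). All of their siEchs1 libraries lay above all siCon libraries. Idh3a, the catalytic subunit of the NAD enzyme, was at 76.8, 88.3 and 89.2 against 20.5, 20.8 and 13.9 FPKM (log2 difference 2.16 ± 0.42 (SE), adjusted p = 0.00134), while the other subunits Idh3b and Idh3g overlapped (adjusted p = 0.864 and 0.215). Aco1, Dlst, Sucla2, Mdh1 and Me2 were the other members that were higher, by log2 differences from 1.18 for Me2 to 1.80 for Aco1. Of the 9 higher members, Aco1, Idh1, Mdh1 and Me2 are linked enzymes outside the cycle itself. The 3 lower members were Ogdh at 18, 17.3 and 9.32 against 61.9, 59.5 and 97.6 FPKM (adjusted p = 0.0005), Idh2 at 0.83, 1.18 and 0.56 against 2.5, 20.9 and 8.38 FPKM (adjusted p = 0.00433) and Acly at 9.59, 7.56 and 7.37 against 22.6, 17.9 and 17.9 FPKM (adjusted p = 0.00567). Cs, Suclg2 and Mdh2 overlapped, with adjusted p from 0.572 to 0.885.

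The other genes of these pathways showed 20 higher (39.2%) and 17 lower (33.3%) of 51 tested, where 21.9% and 26.9% of all genes were. In the TCA group 9 were higher and 3 lower of 15. All 4 subunits of succinate dehydrogenase, which is both a TCA enzyme and complex II, were among the higher ones: Sdha was at 68.4, 55.7 and 63 against 27.1, 20 and 11.2 FPKM, Sdhb at 77.6, 63.5 and 58.9 against 10.9, 10.5 and 10.7, Sdhc at 113, 131 and 125 against 17, 16.7 and 11.1 and Sdhd at 154, 115 and 122 against 10.8, 5.82 and 9.61 FPKM (adjusted p = 0.00487, 0.00234, 0.000257 and 0.00753). Fbp1, which reverses the phosphofructokinase step, was at 62.8, 47.5 and 76.3 against 4.59, 5.65 and 4.71 FPKM (adjusted p = 6.08e-05).

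Of the 30 calls at L2C, 23 held under every setting and every left-out library. Those of Pfkl, Pfkfb3, Aldoc, Gapdh, Mpc2, Mdh1 and Me2 were lost without 1 library, with adjusted p between 0.0504 and 0.162. Leaving out siCon L2C replicates 1, 2 and 3 ended 3, 4 and 6 of them, siEchs1 L2C replicates 1, 2 and 3 ended 1, 4 and 6, and siCon E2C replicates 1 and 3 each ended that of Mdh1.

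From E2C to L2C in siEchs1 embryos, 7 members rose and 0 fell of 49 tested, where 14.6% of all genes were called, 11.8% higher and 2.73% lower. The median log2 difference was 0.34 over the members and 0.23 over all genes. Of the 7 genes, 6 were glycolysis genes: Pkm rose from 40.4, 101 and 75.6 to 350.4, 217 and 238 FPKM (log2 difference 1.94 ± 0.35 (SE), adjusted p = 0.00378), Pfkl from 0.83, 2.32 and 0.93 to 11.4, 4.18 and 6.78 FPKM (adjusted p = 0.00718), Pfkfb3 from 2.45, 1.68 and 1.43 to 7.79, 10.4 and 6 FPKM (adjusted p = 0.0137) and Eno1 from 7.31, 16.3 and 10.1 to 35.7, 31.9 and 30.5 FPKM (adjusted p = 0.0236), beside Pfkm and Aldoa. The seventh was Dlst (adjusted p = 0.0355). Of the 13 pyruvate entry genes 0 were called, with 1 at an unadjusted p under 0.05 (28.0% of all genes). When siEchs1 libraries alone were fitted, 1 member, Pfkfb3, kept its call. Leaving out siEchs1 E2C replicate 1 or siEchs1 L2C replicate 1, 2 or 3 ended 4, 5, 5 and 4 of the 7 calls, and each siCon E2C replicate ended that of Dlst, with adjusted p between 0.0511 and 0.136.

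The siRNA effect itself differed between the stages in 11 members (4 higher at L2C, 7 lower), where 17.2% of all genes were called, 5.65% higher and 11.6% lower. In Pgam1 the log2 effect went from 1.14 at E2C to -2.21 at L2C (difference -3.36 ± 0.47 (SE), adjusted p = 0.0021), and in Pkm from 2.31 to 0.04 (difference -2.27 ± 0.50 (SE), adjusted p = 0.0124). Slc2a3 went from -0.48 to -3.46 (difference -2.99 ± 0.52 (SE), adjusted p = 0.00546) and Pdhb from 0.62 to -1.40 (difference -2.02 ± 0.45 (SE), adjusted p = 0.0136). Idh1 went the other way, from -0.55 to 2.41 (difference 2.95 ± 0.62 (SE), adjusted p = 0.0106), and was the 1 TCA gene among the 11. It is a linked enzyme outside the cycle itself. These 5 held under every setting and left-out library. The other 6 were Ldha, Slc16a1 and Pdha1, lower, and Ldhb, Dlat and Dld, higher. Leaving out siCon E2C replicates 1, 2 and 3 ended 5, 6 and 2 of their calls, siCon L2C replicates 1, 2 and 3 ended 2, 3 and 3, siEchs1 L2C replicates 1, 2 and 3 ended 1, 3 and 3, and siEchs1 E2C replicate 2 ended that of Ldha, with adjusted p between 0.0511 and 0.108. Rescaling without mitochondrial and ribosomal RNA gave 3 higher and 11 lower. Without siEchs1 E2C replicate 3, 17 members were called, 4 higher and 13 lower, with 23.5% of all genes.

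In the treatment experiment 0 of the 46 tested members passed the adjusted threshold in any of the 3 comparisons, and Hk1, Aldoc, Pdk4 and Idh2 were below the filter. In crotonate against DMSO, 14 members had an unadjusted p under 0.05, 30.4% of those tested, where 16.3% of all genes did and 0.529% were called after adjustment. The median log2 difference was -0.53 over the members and -0.15 over all genes. The 2 crotonate libraries were both below both DMSO libraries for 29 members, where the same held for 38.4% of all genes: 12 of 17 glycolysis, 5 of 13 pyruvate entry and 12 of 16 TCA genes. In acetate against DMSO, 0 members had an unadjusted p under 0.05 (5.96% of all genes, 0.0725% called), with a median of -0.02. In crotonate against acetate 12 did (19.5% of all genes, 1.86% called), with a median of -0.46. Crotonate and acetate were each set against the same DMSO libraries, and whether their doses matched is not stated.

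Idh3a was at 27.3 and 21.6 FPKM under crotonate, against 57.3 and 57.9 under DMSO and 51.6 and 51.8 under acetate (log2 difference from DMSO -1.21 ± 0.28 (SE), adjusted p = 0.0987). Fh1 was at 10.8 and 10.6 under crotonate, 25.4 and 30.6 under DMSO and 25.4 and 33.7 under acetate (log2 difference from DMSO -1.31 ± 0.31 (SE), adjusted p = 0.105). Idh1 was at 12.4 and 12.7, 30 and 30.7 and 32.8 and 29.1 FPKM in the same order (log2 difference from DMSO -1.21 ± 0.29 (SE), adjusted p = 0.105). In these 3 genes both crotonate libraries lay below all 4 others. They were picked for the smallest p against DMSO, so this separation is no further support. The share of all genes for which it held was not counted. Dld was at 17.5 and 16.6, 32.9 and 50 and 50.2 and 57.9 FPKM, with the smallest p of the list for crotonate against acetate (log2 difference -1.61 ± 0.32 (SE), adjusted p = 0.0532). Ldhb was at 912 and 934 under crotonate, 1344 and 1599.5 under DMSO and 1635 and 1665 FPKM under acetate (unadjusted p = 0.0325 and adjusted p = 0.252 against DMSO). Pkm was at 26.1 and 28.7, 58 and 67.2 and 51 and 80.3 FPKM in that order (adjusted p = 0.133 against DMSO).

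A few members had higher values under crotonate. Slc2a3 was at 8.4 and 12.6 FPKM against 4.95 and 4.07 under DMSO and 4.44 and 2.6 under acetate (adjusted p = 0.237 and 0.108), and its share of both glucose transporters was 61.1% ± 9.01 under crotonate, 37.9% ± 2.69 under DMSO and 31.9% ± 16.2 under acetate (SD, n = 2). Suclg2 was at 90.1 and 66.5, 52.3 and 44.8 and 52.1 and 49.8 FPKM (adjusted p = 0.308 against DMSO), and with Sucla2 at 44.9 and 37.1 FPKM under crotonate its share of both succinyl-CoA ligase subunits was 65.4% ± 1.82, against 43.7% ± 2.1 under DMSO (SD, n = 2). Neither gene's crotonate libraries overlapped those of DMSO.

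For acetate against DMSO, the smallest p belonged to Me2, mitochondrial malic enzyme, at 13.3 and 30.8 against 38.7 and 41.1 FPKM (log2 difference -0.94 ± 0.41 (SE), adjusted p = 0.784, 95% interval -1.89 to 0.01), to Mdh2, at 12.1 and 6.88 against 3.87 and 5.7 FPKM (log2 difference 0.83 ± 0.39 (SE), adjusted p = 0.784, 95% interval -0.07 to 1.73), and to Pdha1, at 9.1 and 20.2 against 26.5 and 20.8 FPKM (log2 difference -0.74 ± 0.41 (SE), adjusted p = 0.784, 95% interval -1.70 to 0.22). Fh1 and Ldhb had log2 differences of 0.07 and 0.17, with intervals of -0.66 to 0.80 and -0.43 to 0.77.

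**Figure D5:**
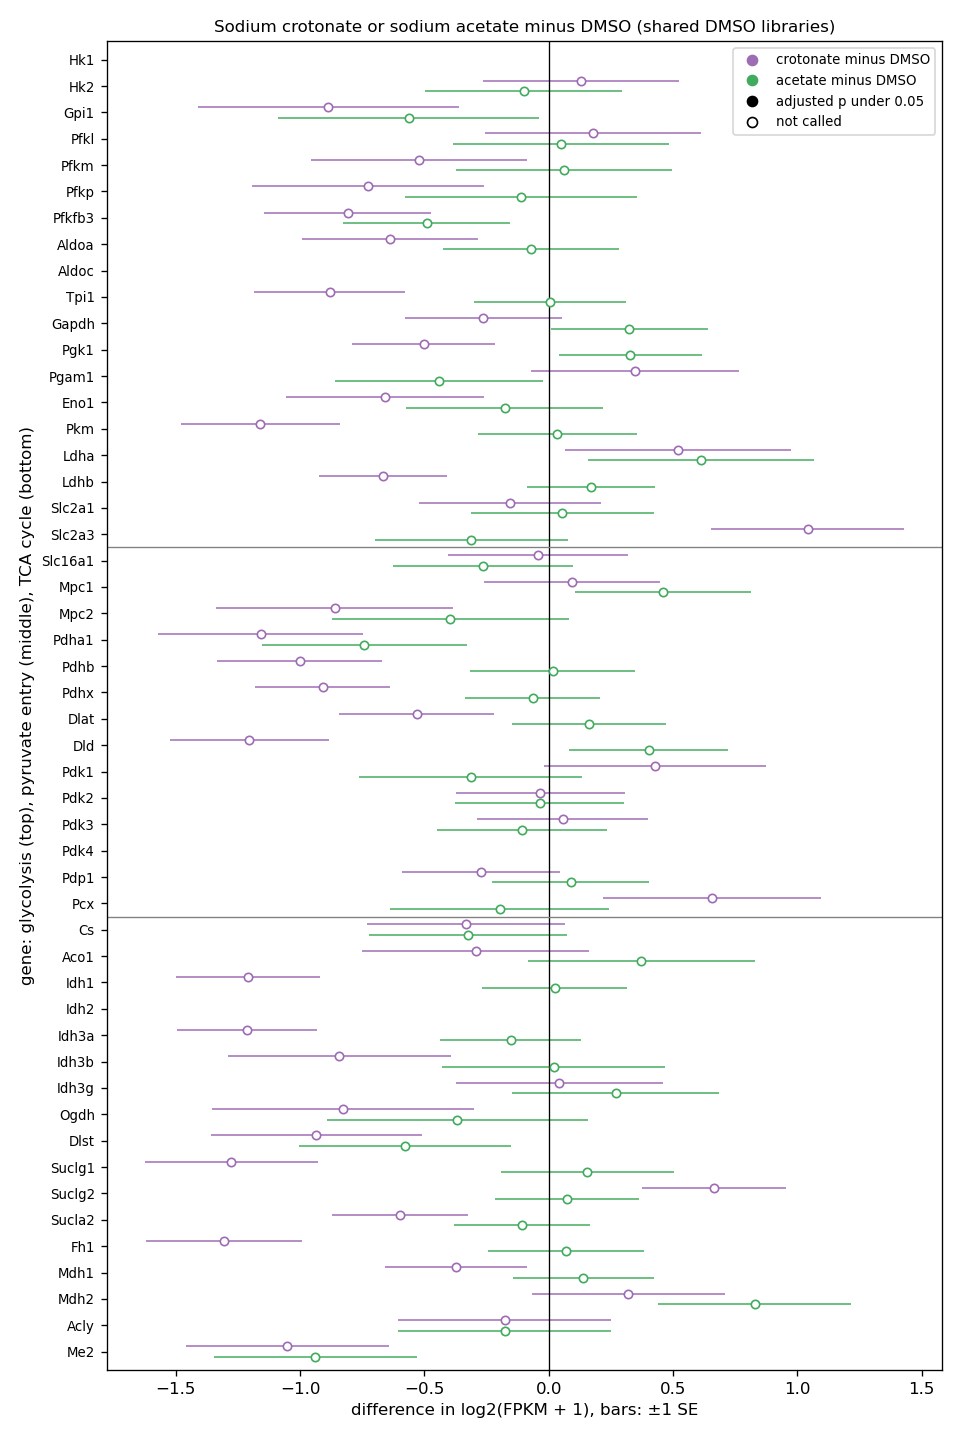
Difference from DMSO in log2(FPKM + 1) for sodium crotonate (purple) and sodium acetate (green) in each tested gene, with bars of 1 SE; open points did not pass an adjusted p of 0.05 (limma), and no point is filled. Both comparisons share the 2 DMSO libraries; the crotonate points of Fh1, Suclg1, Idh3a, Idh1 and Dld lie farthest to the left, and that of Slc2a3 farthest to the right.

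The treatment calls depended on the libraries in the fit. When crotonate and DMSO libraries alone were fitted, or either acetate replicate was left out, 11 members were called against DMSO, all lower: Pkm, Pdha1, Pdhb, Pdhx, Dld, Idh1, Idh3a, Dlst, Suclg1, Fh1 and Me2, with adjusted p from 0.0250 to 0.0457. Of all genes 9.34% were called with crotonate and DMSO alone, 8.89% without acetate replicate 1 and 8.07% without acetate replicate 2. Without acetate replicate 2, Gpi1, Dlst and Me2 were called for acetate against DMSO, with 6.80% of all genes. Without acetate replicate 1 or 2, 5 members each were called for crotonate against acetate, with 6.38% and 11.1% of all genes. Of the other genes in these pathways 0 of 39 tested were called against DMSO. For crotonate against acetate 1 (2.56%) was, where 1.86% of all genes were. It was Fbp1, at 14.6 and 11.8 against 44.3 and 54.7 FPKM (log2 difference -1.83 ± 0.32 (SE), adjusted p = 0.0413). Of the 12 oocyte and maternal transcripts, 11 were lower under crotonate than under DMSO without overlap, where 38.4% of all tested genes were. Of these 11, 0 were called. They include Nlrp5, at 27.7 and 25.7 against 66.7 and 104 FPKM, and Ooep, at 107 and 78.6 against 198 and 258 FPKM. Btg4, the remaining transcript, was at 4776 and 4339 against 4081 and 3654 FPKM, so that the list's sum overlapped, at 5540 to 6239 against 6044 to 6047 FPKM, with 6538 to 7333 under acetate. The 2-cell marker sum was 232 to 233 FPKM under crotonate, 101 to 202 under DMSO and 167 to 224 under acetate, and mitochondrial RNA took 16.7% to 19.8%, 12.2% to 13.4% and 11.9% to 20.6% of the total. These move with the members' values, and their part in these values was not tested.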

How the data were processed

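RNA-seq was measured in 18 Smart-seq2 libraries, grouped by their sample titles. Per the submitters' processing notes, the tools were cutadapt 1.16 for trimming and STAR for alignment, on mm10. STAR's version, the gene annotation and the program behind the values are unstated: not given in the sources used here. Values of FPKM per gene and library were deposited by the authors; the files hold no counts, so the read depth is unknown and count models were not used, although the design had allowed for them.

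Symbols matched the files directly. Of the 108 symbols that occurred more than once, Aldoa was kept with its 2 entries summed, and the others were dropped. The 24 symbols that a spreadsheet had made dates were dropped as well. Tests used log2(FPKM + 1) with limma 3.58.1 in R 4.3.3 (trend and robust variance), fitted over all 17653 genes (siRNA) or 13790 genes (treatment) that reached 1 FPKM in 3 or more siRNA or 2 or more treatment libraries, the experiments apart. Calls needed a Benjamini-Hochberg adjusted p under 0.05 over all tested genes. SE and 95% intervals are limma's. Fold changes on this scale understate changes of low genes.

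The 50 members and all gene lists were chosen with earlier results of these data known. Genes named with values are, per step and comparison, up to 4 called members with the largest log2 difference and a mean of at least 5 FPKM in either group, the highest member of each step, isoform families whose order changes and, where fewer than 3 were called, the 3 smallest p; further genes were named after their values were seen. Alternatives were quantile normalization, rescaling without mitochondrial and ribosomal RNA, a pseudocount of 0.1, no filter, no trend, fitting compared libraries alone, a replicate block and leaving out each library. Replicate numbers did not pair the libraries. For siEchs1 L2C, titles and deposited names disagree on replicates 2 and 3, and titles were used. The pipeline was tested on simulated data in which 100 genes were changed 2-fold and 100 others 4-fold, in 1 group. It recovered 2% of 2-fold and 48% of 4-fold changes in the siRNA design of 17653 genes, and 0% of both in the treatment design of 13790. False calls were 3 and 1. The adjusted p depends on how many genes differ, and 20.3% of all genes were called for siEchs1 at E2C. The recovered shares are therefore not the sensitivity in the siRNA data.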

Additional observations from a re-analysis of the deposited data

Results flagged for a closer look

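In 11 of the 49 tested members the effect of siEchs1 differed between the stages by the test of that difference itself (limma, siEchs1 minus siCon at L2C less the same at E2C, on log2(FPKM + 1)). It was higher at L2C in 4 (8.16%) and lower in 7 (14.3%), where 5.65% and 11.6% of all genes were called. Of the 11 calls, 5 held under every setting and left-out library. In glycolysis and glucose uptake the difference was -3.36 in Pgam1, -3.27 in Ldha, -2.99 in Slc2a3 and -2.27 in Pkm, and 2.05 in Ldhb. At pyruvate entry it was -2.02 in Pdhb, -1.90 in Slc16a1 and -1.71 in Pdha1, against 2.14 in Dld and 1.37 in Dlat. Among the TCA genes it was 2.95 in Idh1, a linked enzyme outside the cycle itself. Adjusted p values ran from 0.0021 for Pgam1 to 0.0381 for Dlat, with 3 libraries in each of the 4 groups.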

How the results depend on the processing

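Over 383 member results, 0 changed sign with a call under any alternative, and of 95 called results 23 of 30 at L2C, 18 of 32 with stage in siCon, 4 of 15 at E2C, 0 of 7 with stage in siEchs1 and 5 of 11 for the difference of effects held under all settings and left-out libraries. At E2C the 15 called members became 9 without a filter and 5 when E2C libraries alone were fitted, and 5 to 26 on leaving out a library. With stage in siEchs1 the 7 became 2 after quantile normalization, 4 without a filter and 1 with siEchs1 libraries alone, and 2 to 8 on leaving out a library. For the difference of effects the 11 became 7 without a filter and 5 to 17 on leaving out a library. The unfiltered fits test more genes. At L2C leaving out a library gave 24 to 32 calls, and with stage in siCon 24 to 37. For crotonate against DMSO the 0 calls became 11 with those libraries alone and 0 to 11 on leaving out a library; the ranges were 0 to 3 for acetate against DMSO and 0 to 5 for crotonate against acetate. Where a group had 1 library left, it was assumed to vary like the others. The cause of these changes was not tested.

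With the replicate number as a block there were 12 calls at E2C, 30 at L2C, 26 and 5 with stage in siCon and siEchs1, 11 for the difference of effects and 0 in each treatment comparison; with the numbers of the deposited names, L2C had 29, without Gapdh (adjusted p = 0.0559). Deviations of siRNA libraries with the same title number correlated between -0.1005 and 0.111. By the deposited names, the 3 pairs of siCon L2C with siEchs1 L2C correlated at 0.111, 0.0875 and 0.224 and the pairs across stages or at E2C between -0.0946 and 0.0737. Pairs of siCon L2C with siEchs1 L2C that had unlike numbers in the deposited names correlated between -0.155 and 0.0169. Neither numbering had every pair above 0.1, so neither was taken to pair the libraries. With 3 libraries a group, this rule cannot show that they were unpaired.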

Other observations

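Members differed between the treatment and the siRNA experiment in both directions. Mpc2 and Mdh2 had lower levels in the treatment experiment. Mpc2 was at 11.4 and 5.95 FPKM under DMSO, 6.43 and 5.71 under acetate and 2.51 and 6.45 under crotonate, and at 90.5, 146 and 114 in siCon E2C. Mdh2 was at 3.87 and 5.7 FPKM under DMSO and at 50.6, 45.8 and 42.2 in siCon E2C. Ogdh was at 11.7 and 15.3 FPKM under DMSO and at 47.8, 28.7 and 33.8 in siCon E2C. Pkm, Dlst and Cs went the other way. With DMSO, Pkm stood at 57.98 and 67.25 FPKM, where siCon E2C had 11.93, 13.25 and 13.47. Dlst stood at 54.09 and 51.16 where siCon E2C had 9.63, 9.4 and 9.93. For Cs these values were 240.03 and 211.99, and 76.49, 81.02 and 88.73. Values outside the list differed too. The 2-cell marker sum was 1018 to 1246 FPKM in siCon E2C and 101 to 202 under DMSO. The ribosomal RNA entry AY036118 was at 0 FPKM in every siCon E2C library and at 9948.5 and 11998 under DMSO. The experiments were not compared by a test, and the share of all genes that differed was not counted. Whether the members' differences are specific to single genes was not tested.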
